A study of Mus musculus with 6 samples.

Results

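Polyamine synthesis and breakdown were followed through 10 genes, Odc1, Amd1, Amd2, Srm, Sms, Smox, Sat1, Oaz1, Oaz2 and Azin1, in the tibialis anterior (TA) muscle of aged mice. The genes were taken by name, from a list chosen with earlier results of these data known. The Ensembl identifiers of the count table were matched to gene symbols, and the 10 symbols were each found among 55416 gene rows. All 10 had enough reads to be tested, among 15623 genes that did. RNA was sequenced from 3 wild-type (WT) and 3 SELENOW knockout (KO) mice, all raised to an age of 24 months without drug treatment, so that both groups carried natural aging and differed in genotype. The methods of the study place both lines on a C57BL/6N background, and the KO line was made by removing exon 4 of Selenow, the gene of the selenium-containing protein SELENOW, with a pair of guide RNAs. No tissue-specific driver is named for the deletion, and the number of founders of the line is not given in the sources used here. RNA came from whole muscle, so that fewer cells of a type and less RNA per cell cannot be told apart.

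Putrescine, spermidine and spermine are small positively charged molecules that bind RNA and DNA, and cells need them for translation and growth. Ornithine decarboxylase (Odc1) makes putrescine, S-adenosylmethionine decarboxylase (Amd1, Amd2) supplies the aminopropyl groups, and spermidine synthase (Srm) and spermine synthase (Sms) add them. Spermine oxidase (Smox) and spermidine/spermine acetyltransferase (Sat1) run the pathway back. Antizymes (Oaz1, Oaz2) bind ornithine decarboxylase and send it to the proteasome, and the antizyme inhibitor (Azin1), a relative of the decarboxylase without its activity, draws them away. In skeletal muscle several genes of the pathway are known to be lowered in several forms of muscle wasting.

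Sequences of the members show why some of their read counts cannot be read separately, and where polyamines are known to act on them. Amd1 and Amd2 are almost the same gene: in the GENCODE M21 transcripts, 3190 of 3204 aligned bases were identical, and the 1005 bases of coding sequence differed at 1 position, G796C (Amd1 base, position counted from 1 at the A of the start codon, Amd2 base). Coding bases 736 to 855 of both are shown around that base, which is in capitals; both genes lie on the minus strand of chromosome 10 (GRCm38, 40287458 to 40302186 for Amd1 and 35708675 to 35711892 for Amd2).
Amd1: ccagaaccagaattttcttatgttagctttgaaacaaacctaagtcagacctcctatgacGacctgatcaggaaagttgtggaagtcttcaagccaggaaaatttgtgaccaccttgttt
Amd2: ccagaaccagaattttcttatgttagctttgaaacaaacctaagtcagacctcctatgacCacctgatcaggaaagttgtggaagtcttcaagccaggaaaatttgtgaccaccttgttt

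Upstream of the coding sequence, both transcripts carry a short open reading frame, shown because in mammalian AMD1 it is known to hold back translation when polyamines are high. Start and stop codons are in capitals, and the frame spans transcript bases 12 to 32 in Amd1 and 13 to 33 in Amd2.
Amd1 upstream frame: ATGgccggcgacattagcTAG
Amd2 upstream frame: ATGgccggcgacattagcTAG

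The antizymes hold the other well-known polyamine switch. Their full protein is made only when the ribosome slips by 1 base at the stop codon of the first reading frame, which polyamines favor. The sites are shown with that stop codon in capitals, at transcript bases 58 to 117 of Oaz1 and 297 to 356 of Oaz2, and 49 of the 60 bases were identical between them.
Oaz1: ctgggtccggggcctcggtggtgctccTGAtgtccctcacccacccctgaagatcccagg
Oaz2: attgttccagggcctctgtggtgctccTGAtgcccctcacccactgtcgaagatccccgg
Both switches act on translation, and gene counts of RNA measure neither.

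Of the 10 genes, 1, Odc1, fell in KO muscle past the thresholds used in edgeR. The KO and WT libraries overlapped for Odc1 and for all the others except Srm. In all, 8 had a log2 fold change under 0 in KO against WT, where 50.6% of all tested genes did, and the median log2 fold change was -0.24 over the 10 genes and -0.0042 over all tested genes. The 10 genes were chosen with earlier results of these data known, so the shares given here describe the list and test nothing. A gene was called a DEG at an unadjusted P under 0.05 together with a fold change over 1.5 or under 0.7. In edgeR 1 of the 10 genes passed, Odc1, and it was lower in KO; 5.35% of all tested genes passed in either direction and 3.14% passed as lower. DESeq2 called Odc1 and Azin1, 2 of 10, both lower, where it called 771 of 15623 genes in either direction and 3.06% of all tested genes lower. Only Srm had every KO library below every WT library, an order that 7.87% of all tested genes had. After Benjamini-Hochberg adjustment none of the 10 genes passed in edgeR's test, the lowest adjusted P being 0.502; with no filter on low counts, 1 of the 10 had an adjusted P under 0.05. Over all genes 0 had an adjusted P under 0.05 in edgeR, 1545 had an unadjusted P under 0.05, and 45 had an adjusted P under 0.05 in DESeq2. The edgeR count of 0 became 363 with no filter on low counts, 242 without KO replicate 2 and 16 without KO replicate 1.

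**Figure D1:**
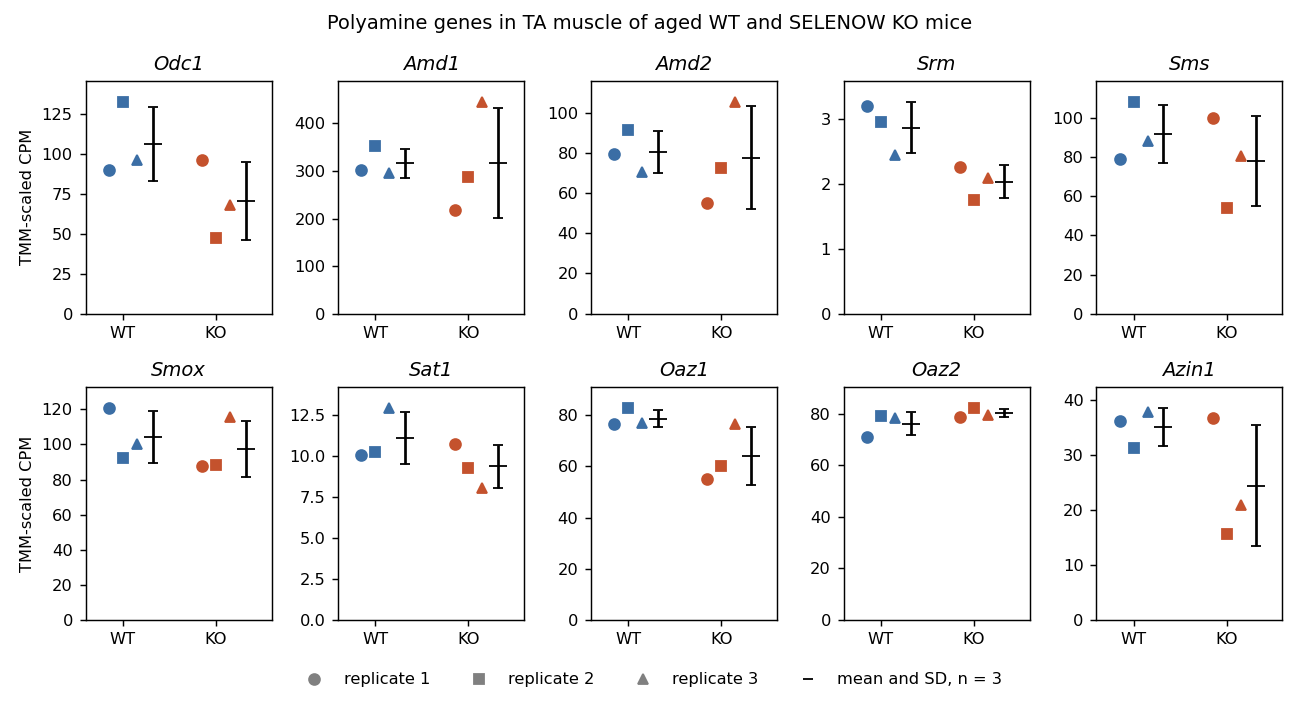
TMM-scaled CPM (axes starting at 0) of each of the 10 genes in 3 WT and 3 KO libraries; symbols are libraries, and the horizontal mark with its bar is the mean and SD of 3. The highest KO library is 1.85 to 2.34 times the lowest for Odc1, Amd1, Amd2, Sms and Azin1, against 1.19 to 1.47 times in WT. For the others it is 1.04 to 1.39 times in KO and 1.08 to 1.31 times in WT. The groups do not overlap for Srm alone.

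Odc1 (ENSMUSG00000011179.9; chromosome 12, 17594795 to 17601506, plus strand), the entry point and rate-limiting enzyme of the pathway, had the lowest log2 fold change of the 10 genes when all libraries were used. That rank passed to Azin1 without KO replicate 1 (-0.93 against -0.87) or WT replicate 2 (-0.60 against -0.40), and to Srm without KO replicate 2 (-0.39 against -0.37). The level of Odc1 was 90.0, 132 and 96.2 CPM in WT replicates 1, 2 and 3 and 96.4, 47.5 and 68.0 CPM in KO replicates 1, 2 and 3, where CPM is the read count scaled to a common library size with TMM factors. KO replicate 1 lay inside the WT range and the other KO libraries were below it, so the groups overlapped. The mean was 106 ± 23.0 CPM in WT and 70.6 ± 24.6 CPM in KO (SD, 3 libraries a group). In edgeR's quasi-likelihood test the log2 fold change was -0.59 ± 0.258 (SE), a fold of 0.665, with an unadjusted P of 0.0489 and an adjusted P of 0.502. The exact permutation test of the 3 against 3 libraries, two-sided, gave P = 0.3, where the smallest it can give is 0.1. The edgeR call was lost when any library other than KO replicate 1 was left out. Unadjusted P was then 0.0736, 0.159 and 0.0678 without WT replicates 1, 2 and 3, and 0.114 and 0.111 without KO replicates 2 and 3. The log2 fold change ran from -0.37 without KO replicate 2 to -0.87 without KO replicate 1, and it was -0.40 without WT replicate 2.

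Azin1 (ENSMUSG00000037458.16; chromosome 15, 38487671 to 38519510, minus strand), the inhibitor that frees ornithine decarboxylase from antizyme, had its lowest values in the same KO libraries as Odc1. It measured 36.1, 31.2 and 37.8 CPM in WT replicates 1, 2 and 3 and 36.7, 15.7 and 20.9 CPM in KO replicates 1, 2 and 3. Again KO replicate 1 was among the WT libraries, and KO replicates 2 and 3 were below all of them. Within WT the order was not shared, WT replicate 2 being the highest for Odc1 and the lowest for Azin1. Relative to the mean log2 level of WT, KO replicate 2 was at -1.15 for Azin1 and -1.14 for Odc1, and KO replicate 3 was at -0.74 and -0.62. The mean went from 35.1 ± 3.42 CPM in WT to 24.4 ± 10.9 CPM in KO (SD, 3 libraries a group). edgeR's log2 fold change was -0.52 ± 0.297 (SE), past the fold threshold, with an unadjusted P of 0.123 and an adjusted P of 0.625. DESeq2 gave the same log2 fold change with an unadjusted P of 0.0362 and an adjusted P of 0.557, and called the gene. Without KO replicate 1 the log2 fold change was -0.93 and edgeR's unadjusted P was 1.74e-04, and without KO replicate 2 it was -0.28. Over their coding parts, 816 of 1334 aligned bases of Odc1 and Azin1 were identical (61.17%). An exon of Azin1 overlaps Gm49077 on the other strand, which had 300 counts in all 6 libraries together.

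The decarboxylase genes Amd1 and Amd2 had nearly equal means in both genotypes and a wide scatter among KO mice. Amd1 (ENSMUSG00000075232.7; chromosome 10, 40163454 to 40178184, minus strand) was at 303, 352 and 295 CPM in WT and 218, 288 and 445 CPM in KO replicates 1, 2 and 3. Amd2 (ENSMUSG00000063953.4; chromosome 10, 35584671 to 35587888, minus strand) was at 79.2, 91.2 and 70.6 CPM in WT and 55.0, 72.5 and 105 CPM in KO. For both genes KO replicate 1 was the lowest and KO replicate 3 the highest of the 6 libraries, an order unlike that of Odc1. The mean of Amd1 was 317 ± 30.5 CPM in WT and 317 ± 116 CPM in KO (SD, 3 libraries a group), and the highest KO library was 2.04 times the lowest, against 1.19 times in WT. The log2 fold changes were 0.0014 ± 0.231 for Amd1 and -0.05 ± 0.217 for Amd2 (SE), with unadjusted P of 0.995 and 0.821 in edgeR's test. The sign of these changes turned with the libraries kept: from -0.32 without KO replicate 3 to 0.22 without KO replicate 1 for Amd1.

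Srm (ENSMUSG00000006442.11; chromosome 4, 148675960 to 148679450, plus strand), which makes spermidine, was the least abundant of the genes. It measured 3.20, 2.96 and 2.44 CPM in WT and 2.26, 1.75 and 2.09 CPM in KO, from 43 to 95 counts a library. All 3 KO libraries lay below the WT libraries, the smallest gap being between 2.44 and 2.26 CPM. The mean was 2.87 ± 0.392 CPM in WT and 2.03 ± 0.257 CPM in KO (SD, 3 libraries a group), and the exact permutation test gave 0.1, the smallest P this design allows. The log2 fold change of -0.49 ± 0.227 (SE; fold 0.712) missed both DEG thresholds, with an unadjusted P of 0.0506 in edgeR's test. Without WT replicate 3, the lowest WT library, it passed both, at -0.60 with an unadjusted P of 0.0359.

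Sms (ENSMUSG00000071708.12; chromosome X, 156226851 to 156275283, minus strand), which makes spermine, was at 78.9, 108 and 88.3 CPM in WT and 99.9, 54.0 and 80.6 CPM in KO. KO replicate 2 was the lowest of all libraries, as for Odc1, Srm and Azin1, and KO replicate 1 was above WT replicates 1 and 3. The log2 fold change was -0.23 ± 0.214 (SE), with an unadjusted P of 0.302 in edgeR's test, and without KO replicate 2 it was -0.023.

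**Figure D2:**
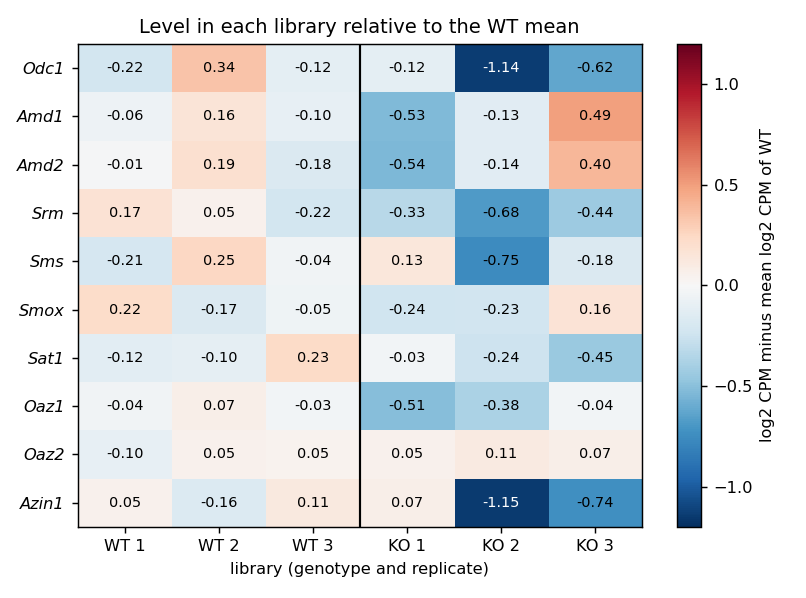
Log2 level of each gene (rows) in each library (columns) minus the mean log2 level of the 3 WT libraries; blue is lower and red is higher. KO replicate 2 stands at -1.14 and -1.15 for Odc1 and Azin1 while KO replicate 1 is near 0 for both, and KO replicate 3 is at 0.49 and 0.40 for Amd1 and Amd2.

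Neither breakdown gene passed the DEG thresholds. Smox (ENSMUSG00000027333.19; chromosome 2, 131333416 to 131367842, plus strand), which turns spermine back into spermidine, was at 121, 92.0 and 100.2 CPM in WT and 87.9, 88.1 and 116 CPM in KO. KO replicates 1 and 2 were just below the lowest WT library and KO replicate 3 was inside the WT range. Sat1 (ENSMUSG00000025283.16; chromosome X, 153996128 to 153999445, minus strand), which acetylates polyamines for export or oxidation, was at 10.1, 10.2 and 12.9 CPM in WT and 10.7, 9.25 and 8.04 CPM in KO. For Sat1 KO replicate 1 was above WT replicates 1 and 2, and the other KO libraries were below them. The log2 fold changes were -0.10 ± 0.161 for Smox and -0.24 ± 0.158 for Sat1 (SE), with unadjusted P of 0.546 and 0.148 in edgeR's test. Without WT replicate 1, the change of Smox turned to 0.018.

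Of the antizymes, Oaz1 tended lower and Oaz2 was the steadiest of the 10 genes. Oaz1 (ENSMUSG00000035242.16; chromosome 10, 80662490 to 80665124, plus strand) was at 76.6, 82.7 and 76.9 CPM in WT and 55.1, 60.3 and 76.7 CPM in KO. KO replicate 3 was level with the lower WT libraries, at 76.7 against 76.6 CPM, and the other KO libraries were below. The mean was 78.7 ± 3.48 CPM in WT and 64.0 ± 11.3 CPM in KO (SD, 3 libraries a group). Its log2 fold change was -0.30 ± 0.149 (SE), with an unadjusted P of 0.0686 in edgeR's test and an exact permutation P of 0.2. Oaz2 (ENSMUSG00000040652.17; chromosome 9, 65575283 to 65597582, plus strand) was at 71.1, 79.1 and 78.6 CPM in WT and 79.0, 82.2 and 79.7 CPM in KO. The KO libraries were within 1.04 times of each other and overlapped WT, and the log2 fold change was 0.075 ± 0.127 (SE; unadjusted P 0.567 in edgeR's test).

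**Figure D3:**
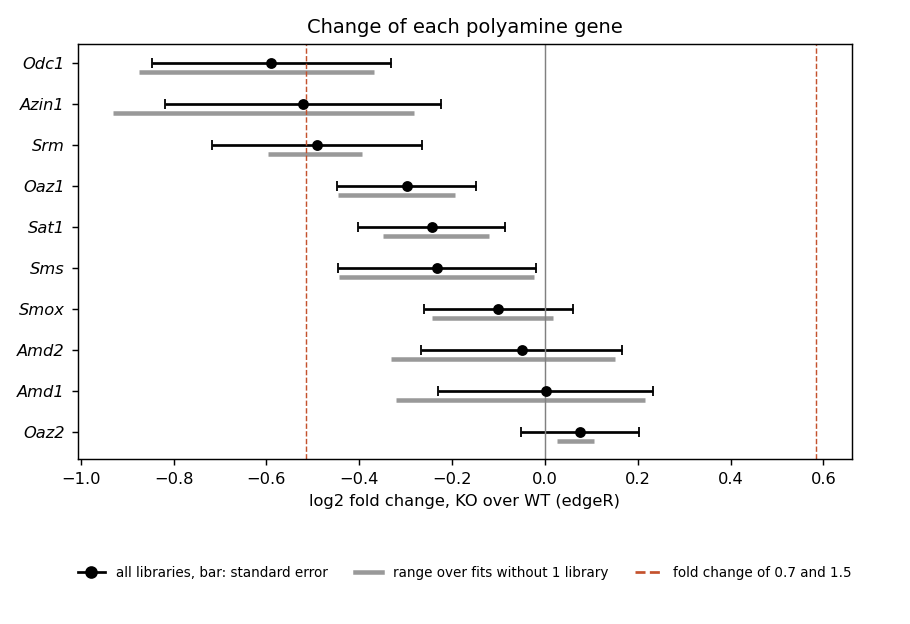
Log2 fold change of KO over WT from edgeR for each gene (points, with bars for the standard error), the range of the value when each library is left out in turn (grey bars), and the DEG fold thresholds of 0.7 and 1.5 (dashed). Odc1 at -0.59 and Azin1 at -0.52 lie past the lower threshold, and the grey bars of Smox, Amd2 and Amd1 cross 0.

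The low libraries were not the same for all genes. KO replicate 2 was the lowest of the 6 libraries for Odc1, Srm, Sms and Azin1, KO replicate 1 for Amd1, Amd2, Smox and Oaz1, KO replicate 3 for Sat1 and WT replicate 1 for Oaz2. Among KO libraries the highest was 2.34 times the lowest for Azin1, 2.03 times for Odc1, 1.91 times for Amd2 and 1.85 times for Sms. In WT the same ratio was 1.21, 1.47, 1.29 and 1.37. Across all genes, the first principal component (38.5% of the variance) placed KO replicate 2 at -5.52, between the WT libraries (-31.1 to -23.5) and the other KO libraries (38.7 and 48.7). KO replicate 2, the lowest library for Odc1 and Azin1, was thus the KO library nearest to WT on that component.

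Per length, Amd1 was by far the most abundant gene of the pathway. In WT it stood at 89.4 ± 8.61 CPM per kilobase (SD, n = 3). Behind it came Odc1 (31.2 ± 6.74), Oaz1 (30.8 ± 1.36), Smox (26.8 ± 3.78), Oaz2 (25.5 ± 1.5) and Amd2 (25.0 ± 3.20 CPM per kilobase), whose neighboring ranges overlapped. Sms (15.3 ± 2.48), Azin1 (5.60 ± 0.547), Sat1 (3.98 ± 0.572) and Srm (1.79 ± 0.245 CPM per kilobase) followed, each separate from the next. In KO Odc1 was at 20.7 ± 7.21 CPM per kilobase, the sixth level in place of the second. Its range there overlapped those of Oaz2, Oaz1, Smox and Amd2 above it and Sms below it. Azin1, at 3.91 ± 1.75 CPM per kilobase, overlapped Sat1 at 3.37 ± 0.482, and Srm stayed the lowest at 1.27 ± 0.160. Because Amd1 and Amd2 share sequence, their separate levels depend on how reads were divided between them.

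The level of the decarboxylase was also set against that of its inhibitors. Odc1 per kilobase over the sum of Oaz1 and Oaz2 per kilobase was 0.492, 0.662 and 0.502 in WT and 0.590, 0.273 and 0.352 in KO replicates 1, 2 and 3. KO replicate 1 was inside the WT range and the other KO libraries were below it, with means of 0.552 ± 0.0953 and 0.405 ± 0.165 (SD, 3 libraries a group; exact permutation P = 0.3). Azin1 over the same sum was 0.0999 ± 0.0130 in WT and 0.0768 ± 0.0397 in KO (SD, 3 libraries a group; exact permutation P = 0.4). The ratio of Odc1 to Azin1 stayed between 4.57 and 7.80 over the 6 libraries. These 3 ratios are of RNA and do not measure protein.

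Several of the genes have pseudogenes that drew reads, and how the authors' counting treated reads that map to more than 1 place is not given in the sources used here. Sms-ps was identical to Sms over all 1101 of its bases, and every 150-base window of it occurred in Sms. It held 17.3% to 19.6% as many counts as Sms and followed it from library to library, with a log2 fold change of -0.30 ± 0.196 (SE). Amd1 held 79.3% to 80.9% of the summed counts of Amd1 and Amd2. Amd-ps3 and Amd-ps4, which differed from Amd1 at 1 of 1005 and 3 of 1003 bases, held 5.64% to 7.82% and 3.13% to 4.84% as many counts as Amd1. Both were lowest in KO replicate 1 and highest in KO replicate 3, as Amd1 was, but in WT they were higher in replicate 3 than in replicate 1 (23.0 against 17.1 CPM for Amd-ps3), where Amd1 was not. Summing Amd1 and Amd2 gave a log2 fold change of -0.0090, and the sum of Amd1 with its pseudogenes gave 0.0037.

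Oaz1-ps, a processed copy that matched Oaz1 at 680 of 681 bases, was the only copy past the DEG thresholds. It measured 9.78, 12.1 and 12.9 CPM in WT and 6.93, 8.24 and 8.34 CPM in KO, with every KO library below every WT library. Its log2 fold change was -0.57 ± 0.153 (SE), with an unadjusted P of 0.0029 and an adjusted P of 0.299 in edgeR's test. Its counts came to 10.9% to 16.8% of those of Oaz1. When the counts of Oaz1 and Oaz1-ps were summed, the log2 fold change was -0.33 ± 0.148 (SE) with an unadjusted P of 0.0451 in edgeR's test, which is not past the fold threshold. The source of the Oaz1-ps reads was not tested.

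**Figure D4:**
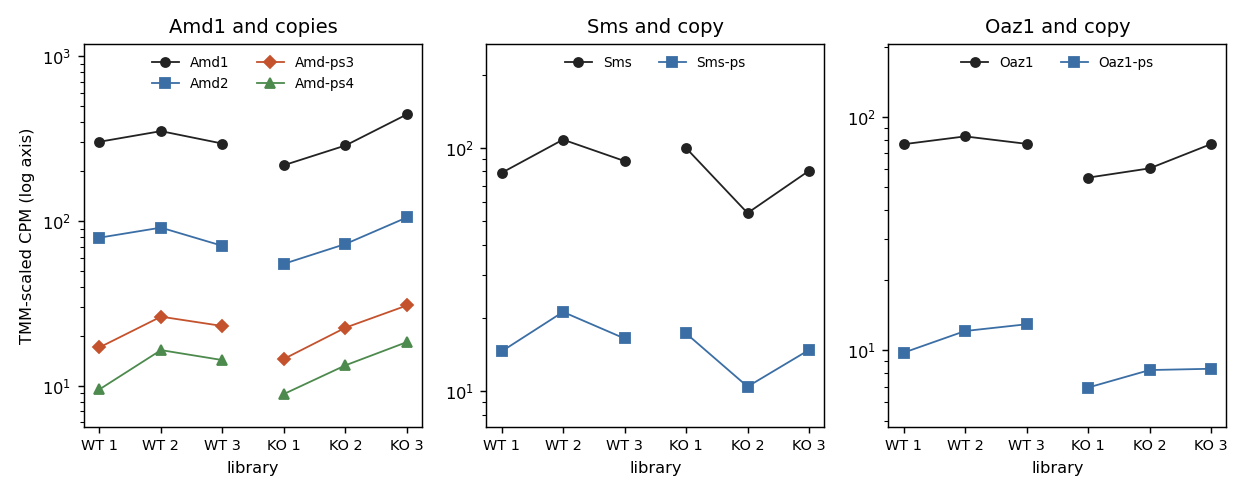
TMM-scaled CPM on a log axis in each library for Amd1 with Amd2 and its pseudogenes, Sms with Sms-ps, and Oaz1 with Oaz1-ps; lines only join the libraries of a group. Sms-ps has the library order of Sms, the Amd1 pseudogenes are lowest in KO replicate 1 and highest in KO replicate 3 as Amd1 is, and Oaz1-ps is lower in the KO libraries (6.93 to 8.34 CPM) than in the WT libraries (9.78 to 12.9 CPM).

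The genes whose level over the 6 libraries was most like that of Odc1 were taken from 4960 protein-coding genes with a mean of at least 10 CPM, by Pearson's r of log2 CPM. They were Gm6793 (r = 0.995), Serinc2 (0.991), Mid1ip1 (0.989), Eif4a2 (0.984), a translation initiation helicase, and Xbp1 (0.984), a transcription factor of the unfolded protein response. The points share libraries and the genotype difference, and the genes were picked for the size of r. All 5 were highest in WT replicate 2 and lowest in KO replicate 2, as Odc1 was. Xbp1, for example, was at 41.7, 51.4 and 40.1 CPM in WT and 40.6, 27.8 and 32 CPM in KO. None of the 5 passed the DEG thresholds, with log2 fold changes from -0.50 for Mid1ip1 to -0.21 for Eif4a2.

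Around the 10 genes, 44 further genes of polyamine metabolism were listed in 6 groups, also with earlier results known, and 32 had enough reads to be tested. Of these 32, 20 were lower and 12 higher in KO, with a median log2 fold change of -0.07, and 1 passed the DEG thresholds, against 5.35% of all tested genes. That gene was Cdkn1a, which encodes the cell cycle inhibitor p21 and was listed among regulators because p21 is known to lower Smox in mouse muscle. It was at 9.41, 12.4 and 17.4 CPM in WT and 7.45, 6.77 and 8.60 CPM in KO, every KO library below every WT library. Its log2 fold change was -0.78 ± 0.209 (SE), with an unadjusted P of 0.00337 and an adjusted P of 0.301 in edgeR's test. WT replicate 3, its highest library, also had the highest summed level of leukocyte markers (81.7 CPM, against 14.4 to 32.2 CPM in the other libraries) and of fibroblast markers (207 CPM, against 55.9 to 115 CPM). The sums were 32.2 and 115 CPM in WT replicate 1, 18.6 and 63.7 CPM in WT replicate 2 and 30.5 and 113 CPM in KO replicate 1. The part of these cell types in the Cdkn1a values was not tested. Without WT replicate 3 the log2 fold change of Cdkn1a was -0.52, with an unadjusted P of 0.0128 in edgeR's test, and over the fits that left out each library it ran from -0.96 to -0.52. Myc, which activates transcription of Odc1, was at 2.31, 4.39 and 2.04 CPM in WT and 2.13, 2.08 and 1.68 CPM in KO, the groups overlapping. WT replicate 2 was the highest for Myc and for Odc1, but the order of the other libraries differed. KO replicate 3 was the lowest for Myc and KO replicate 2 for Odc1, and a link between the genes was not tested. The log2 fold change of Myc, -0.57 ± 0.30 (SE), had an unadjusted P of 0.0789 in edgeR's test.

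In the supply of ornithine and arginine, 7 of 10 genes were tested, 6 were lower and none passed the DEG thresholds. In the supply and salvage of S-adenosylmethionine, 8 of 9 were tested, 6 were lower and none passed, with 0.14 ± 0.145 for Mat2a, which makes S-adenosylmethionine, and -0.071 ± 0.149 for Mtap, which recycles the methylthioadenosine left by Srm and Sms (log2 fold change ± SE). Of the further oxidases, acetyltransferases and antizyme relatives, 4 of 6 were tested, 1 was lower and none passed, and the acetylpolyamine oxidase Paox, at 1.81 CPM in WT and 1.86 CPM in KO, had a log2 fold change of 0.027 ± 0.342 (SE). Of the transport genes 5 of 10 were tested, 2 were lower and none passed. Hypusine is made from spermidine on the translation factor eIF5A, encoded by Eif5a and Eif5a2, and all 4 genes of that group were tested, 3 were lower and none passed. The log2 fold changes there were -0.11 ± 0.147 for Eif5a, 0.024 ± 0.478 for Eif5a2, and -0.20 ± 0.177 for Dhps and -0.0082 ± 0.197 for Dohh, the enzymes that make the modification (SE). On the other strand, exons of Paox overlap Echs1, those of Dhps overlap Wdr83, those of Mat2a overlap Particl and those of Cdkn1a overlap AC167363.2. In all 6 libraries together these neighbors had 5735, 2894, 1111 and 174 counts, and Paox itself had 25 to 79 counts a library. Exons of Dohh overlap Gm48551 on the same strand, which had 1740 counts in all 6 libraries together. Counts of these genes can thus include reads of the neighbor.

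**Figure D5:**
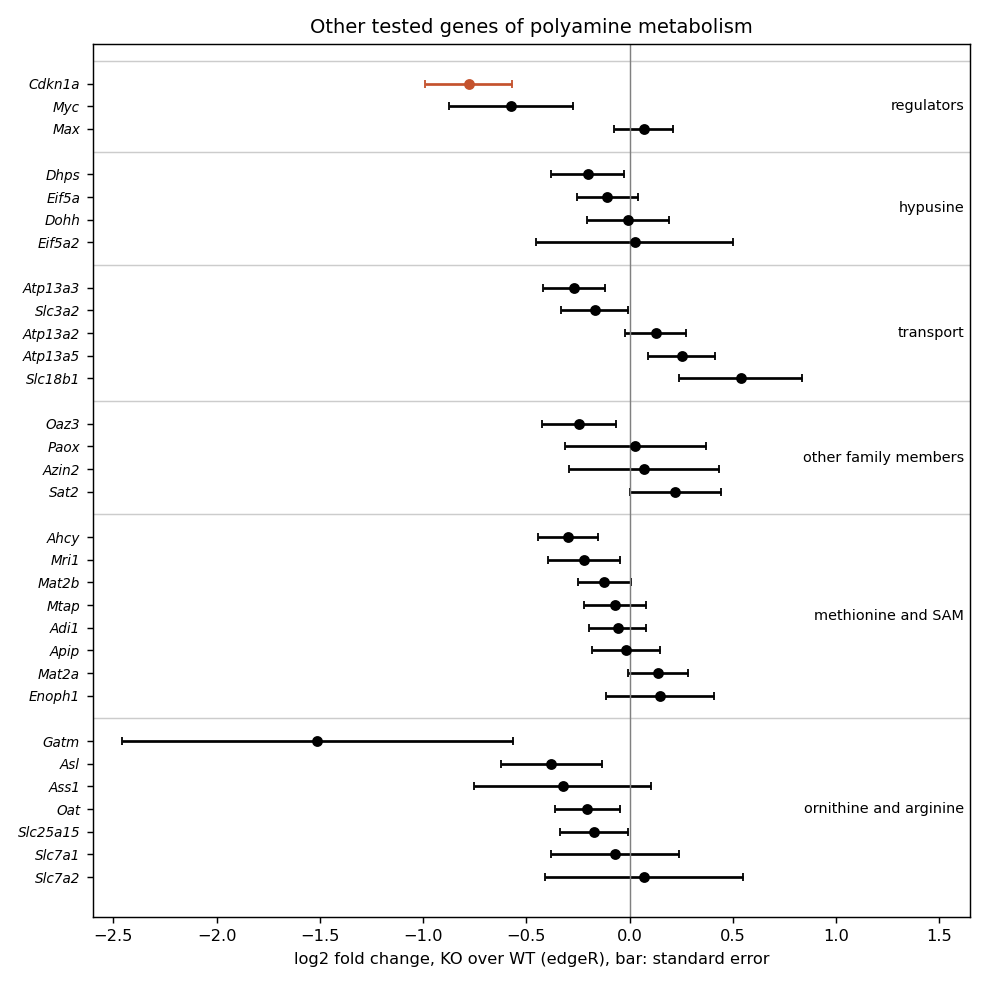
Log2 fold change of KO over WT from edgeR, with standard errors, for tested genes around the 10 polyamine genes, by group. Cdkn1a (-0.78, colored) is the only one drawn past the DEG thresholds, and the value furthest from 0, that of Gatm at -1.51, has the widest bar (0.949).

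The libraries held 25351976 to 29111213 counts, so that 3 counts correspond to 0.103 to 0.118 CPM. Mitochondrially encoded genes took 29.1% to 37.3% of the counts in WT and 35.4% to 40.3% in KO, and Odc1 alone of the 10 genes was called when they were left out. Markers of skeletal muscle fibers summed to 75309 to 98496 CPM in WT and 83162 to 96518 CPM in KO, while the epidermal markers Krt5, Krt14 and Krt1 had no counts and Krt10 was at 0.249 to 0.935 CPM. Of the markers tested, 7 of 8 for leukocytes and 4 of 4 for fibroblasts were lower in KO, where 50.6% of all tested genes were. For endothelium 4 of 4 and for Schwann cells 3 of 3 were higher, with log2 fold changes of only 0.062 for Kdr and 0.030 for Emcn. Leukocyte markers summed to 32.2, 18.6 and 81.7 CPM in WT and 30.5, 19.1 and 14.4 CPM in KO. Fibroblast markers summed to 115, 63.7 and 207 CPM in WT and 113, 55.9 and 89.9 CPM in KO. In both sums WT replicate 3 was the highest and WT replicate 2 lay inside the KO range. None of the markers passed the DEG thresholds, and the lowest unadjusted P in edgeR's test was 0.00835, for Cdh5 (log2 fold change 0.50). The part of other cell types in the values above was not tested. Selenow was at 268, 245 and 219 CPM in WT and 193, 212 and 210 CPM in KO. All KO libraries lay below the WT libraries, with a log2 fold change of -0.25 ± 0.142 (SE) and an adjusted P of 0.604 in edgeR's test, and counts over the whole gene do not measure the loss of exon 4.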

How the data were processed

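RNA-seq of TA muscle from 3 WT and 3 KO mice was used. The authors used Hisat2 (v2.1.0) for alignment and featureCounts (v1.6) to count reads per gene, and they deposited raw counts with gene positions and lengths. The paper names GRCm38 and the submitters' processing notes name GRCm39. Positions of genes are printed as in the deposited table and are not those of GRCm38. Sequences come from GENCODE M21 (GRCm38). Handling of strand is not given in the sources used here.

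Symbols were matched for 52083 of 55416 genes. The WT column without a number was taken as replicate 1, since the other columns name 2 and 3. Counts were filtered with filterByExpr, scaled by TMM factors (0.893 to 1.20) and tested with edgeR's robust quasi-likelihood fit and Benjamini-Hochberg adjustment over 15623 genes. Log2 CPM used a prior count of 1. Thresholds for DEGs follow the methods of the paper, which applied them to DESeq2 (1.32.0) results. Here edgeR was the main test and DESeq2 an alternative. Tools were R 4.3.3, edgeR 4.0.16, DESeq2 1.42.0 and limma 3.58.1, and the steps were tested on simulated data. The labels and the paper's methods give 3 RNA samples a group and no pairing; P values measure the spread between these samples.

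The members and lists were chosen with earlier results of these data known. The genes named were the 10 members, listed genes past the DEG thresholds, Paox, Mat2a, Mtap, Eif5a, Dhps, Dohh and Myc, the 5 genes most like Odc1, and Selenow; the pseudogenes, the overlapping genes, Gatm, Eif5a2 and the marker genes are outside this rule and were named after their values were seen. A further gene named by the rule is not reported here. The alternatives were DESeq2 on these genes, DESeq2 size factors, testing without a filter, a minimum of 10 counts in each library, robust estimation off, the replicate number as a block, no mitochondrially encoded genes, each library left out, no fold threshold, and summed copies.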

Additional observations from a re-analysis of the deposited data

How the results depend on the processing

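The number of polyamine genes past the DEG thresholds was 1 with all libraries in edgeR, 2 with DESeq2, 2 with no filter on low counts (Odc1 and Azin1 both times), and 0 to 2 when each library was left out: 0 without WT replicate 1, WT replicate 2, KO replicate 2 or KO replicate 3, Srm alone without WT replicate 3, and Odc1 and Azin1 without KO replicate 1. With the replicate block, Azin1 passed (log2 fold change -0.61, unadjusted P 0.0156 in edgeR) and Odc1 did not (-0.62, P 0.0946). The replicate block gave 890 DEGs against 836. The numbers share no animal, and same-numbered libraries deviated together by correlations of 0.059, 0.041 and -0.073. The number of lower genes among the 10 stayed between 7 and 9 in all 13 other fits, with Oaz2 higher in each. The sign of Amd1 turned with no filter (-0.0096), with at least 10 counts in every library (-0.0026), with the replicate block (-0.059) and with Amd2 added (-0.0090). Leaving out each library gave -0.32 to 0.22 for Amd1, -0.33 to 0.15 for Amd2 and -0.24 to 0.018 for Smox. Of the other pathway genes 1 passed, 2 passed with no filter, 2 with robust estimation off, and 1 to 3 with a library left out. Over all genes, 1780 passed with no filter, which tests 31780 genes, and 1545 with no fold threshold. Genes past the thresholds were 814 of 16105, 993 of 15981 and 944 of 15964 without WT replicates 1, 2 and 3. Without KO replicates 1, 2 and 3 they were 1072 of 16087, 910 of 16103 and 833 of 16084. The causes of these differences were not tested. Of the 10 genes Srm had the fewest counts, 43 to 95 a library.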
